A study of Bos taurus with 15 samples.

Results

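Immediate early genes are genes whose mRNA a cell makes within minutes of a stimulus, with no new protein needed. The 10 members described here were chosen by name: FOS, FOSB, JUN, JUNB, ATF3, EGR1, MYC, IER2, IER3 and DUSP1. All 10 were found among the 24616 genes of the deposited expression table. They were followed in 15 libraries of in vitro matured bovine oocytes, in 5 groups of 3 libraries each. One group was fresh oocytes. The other 4 groups were oocytes that had been vitrified, that is, cooled so fast that the solution becomes a glass. They were cooled in liquid helium or in liquid nitrogen, each with 5.6 M or 6.6 M of cryoprotective agent. All groups, fresh included, came from ovaries, were matured with gonadotropins and follicular fluid, and were stripped of cumulus cells with hyaluronidase. The labels call the oocytes matured in vitro, whereas the title of the study calls them immature. They give no animals, ages, agents or time after warming. Nothing says that the 3 libraries of a group came from separate animals, so the p-values below measure the spread between libraries, which may be technical.

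FOS and FOSB pair with JUN and JUNB to form AP-1, a transcription factor that growth factors, stress and cell dissociation induce in many cell types. MAP kinases switch these genes on, and DUSP1, itself an immediate early gene, removes the phosphates that keep MAP kinases active. Their mRNAs carry AU-rich elements and are quickly degraded. A fully grown oocyte makes little new RNA and relies on stored messages, while the surrounding granulosa and cumulus cells induce immediate early genes in response to gonadotropins.

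Library totals ran from 1601519 to 8569618 counts. All 6 helium libraries and nitrogen 6.6 M library 3 held over 4000000 counts, and the other 8 libraries held fewer, so depth went with the coolant. The helium 5.6 M libraries are numbered 3, 4 and 5 by their labels, and the others 1, 2 and 3. All 10 oocyte markers found in the table, of 12 sought (GDF9, BMP15 and zona pellucida genes among them), had counts, with a summed level between 3638 and 7297 CPM (the count scaled by the library total) in each library. Helium 6.6 M library 2 and fresh library 2 stood apart for several members, and the differences that rest on them are given with and without them.

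The members were rare messages in these oocytes. Levels are given as FPKM, the count scaled by gene length and by library total, so they can be compared between genes. Over the 15 libraries JUN had the highest mean at 3.60 ± 2.22 FPKM (SD, n = 15 here and in the next sentences). DUSP1 followed at 2.96 ± 1.19, ATF3 at 2.50 ± 0.992, JUNB at 2.23 ± 1.17 and FOS at 1.75 ± 4.10 FPKM. IER3 had a mean of 1.65 ± 1.10, EGR1 of 1.46 ± 2.43, FOSB of 0.522 ± 0.650, IER2 of 0.142 ± 0.375 and MYC of 0.0793 ± 0.187 FPKM. No 2 neighbours in this order differed by more than the SD of the higher one. Among the 16294 genes with any count, JUN ranked 6539 by mean FPKM and MYC ranked 13390. By the median the order changed: DUSP1 came first at 3.18 FPKM, and FOS stood below IER3 and EGR1 at 0.580 FPKM, since its mean rested on 1 library. In all 15 libraries together the members had between 17 counts (MYC) and 443 counts (JUN).

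**Figure D1:**
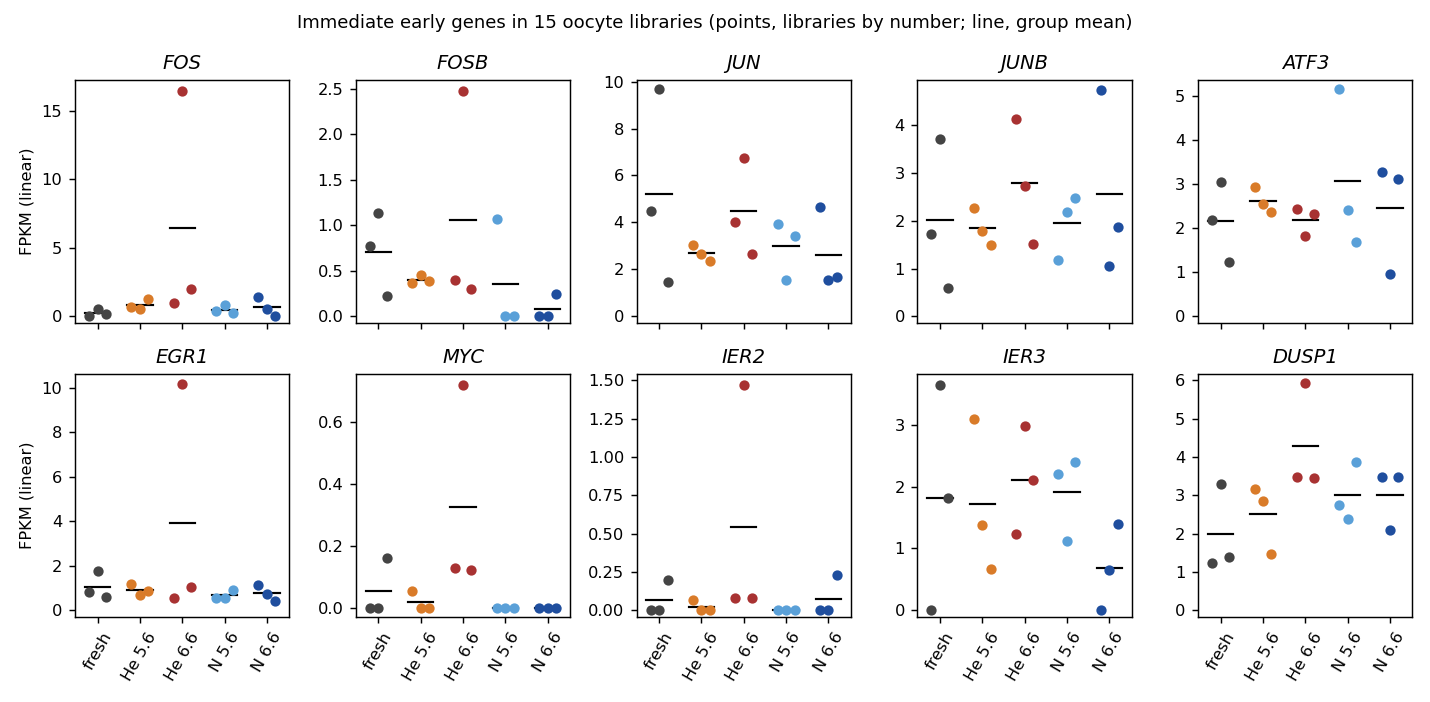
Each panel plots 1 gene in FPKM on a linear axis, with its own scale; points are libraries in order of their number within the 5 groups, and lines are group means (n = 3). FOS, FOSB, EGR1, MYC and IER2 each have 1 point far above the rest, helium 6.6 M library 2, while JUN, JUNB, ATF3, IER3 and DUSP1 scatter within every group.

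FOS encodes the AP-1 subunit that gives the family its name (ENSBTAG00000004322, chromosome 10, 86883739 to 86887169, UMD3.1). Fresh libraries 1 to 3 held 0, 2 and 1 FOS counts, which is 0, 0.580 and 0.169 FPKM. In helium 5.6 M, FOS had 0.724, 0.574 and 1.28 FPKM, and in helium 6.6 M it had 0.956, 16.4 and 2.02 FPKM. In helium 6.6 M every library lay above every fresh library, which also held for 8.27% of the 16294 genes with any count. In helium 5.6 M, library 4 lay just below fresh library 2 in FPKM. With edgeR's TMM scaling, which the tests use, it lay just above, so their order turned with the scaling. Nitrogen 5.6 M had 0.409, 0.833 and 0.266 FPKM, and nitrogen 6.6 M had 1.44, 0.548 and 0 FPKM. The nitrogen values therefore overlapped the fresh ones in both groups. Helium 6.6 M library 2 alone held 238 of the 341 FOS counts of the study, or 69.8%, and its level was 8.15 times the next highest. Without it the highest FOS level in the other 14 libraries was 2.02 FPKM, in helium 6.6 M library 3.

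FOSB encodes a close relative of FOS that also pairs with JUN proteins (ENSBTAG00000008182, chromosome 18, 53501995 to 53508395). Its fresh values were 0.776, 1.13 and 0.220 FPKM. Helium 5.6 M had 0.363, 0.457 and 0.392 FPKM, and helium 6.6 M had 0.400, 2.47 and 0.297 FPKM. In nitrogen 1 library of each group had counts, at 1.07 FPKM (nitrogen 5.6 M library 1, 8 counts) and 0.252 FPKM (nitrogen 6.6 M library 3, 6 counts), and the other 4 libraries had 0. Helium 6.6 M library 2 was again the highest, with 43.7% of all FOSB counts. The other 5 helium libraries all lay between 0.297 and 0.457 FPKM, within the range of the fresh libraries.

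JUN encodes the main partner of FOS in AP-1 (ENSBTAG00000004037, chromosome 3, 87841042 to 87843087). It was detected in all 15 libraries. The fresh libraries had 4.48, 9.67 and 1.45 FPKM, the lowest and the highest value of the study among them. Every vitrified library lay within the fresh range in FPKM, whereas with TMM scaling 3 nitrogen libraries lay just below it. Helium 5.6 M had 3.05, 2.67 and 2.34 FPKM, and helium 6.6 M had 4.04, 6.76 and 2.66 FPKM. Libraries of nitrogen 5.6 M had 3.96, 1.57 and 3.44 FPKM, and nitrogen 6.6 M had 4.64, 1.57 and 1.66 FPKM. The group means ran from 2.63 ± 1.75 FPKM (SD, n = 3) in nitrogen 6.6 M to 5.20 ± 4.15 (SD, n = 3) in fresh oocytes, a gap smaller than the fresh SD.

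JUNB encodes a JUN relative that activates genes less strongly than JUN and can oppose it (ENSBTAG00000012046, chromosome 7, 13851131 to 13852933). The fresh libraries had 1.73, 3.71 and 0.589 FPKM. Helium 5.6 M had 2.27, 1.78 and 1.49 FPKM, and helium 6.6 M had 4.13, 2.73 and 1.51 FPKM. The nitrogen 5.6 M libraries had 1.19, 2.18 and 2.48 FPKM, and nitrogen 6.6 M had 4.74, 1.06 and 1.88 FPKM. All 4 vitrified groups overlapped the fresh libraries, and the highest value stood in nitrogen 6.6 M library 1 and not in the library that was highest for FOS.

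ATF3 encodes a stress-induced factor of the ATF family that often represses its targets (ENSBTAG00000008545, chromosome 16, 72820026 to 72832974). Fresh oocytes had 2.19, 3.05 and 1.24 FPKM. The helium groups were the most even, with 2.93, 2.55 and 2.37 FPKM at 5.6 M and 2.44, 1.82 and 2.33 FPKM at 6.6 M. The nitrogen groups spread more widely, with 5.16, 2.41 and 1.68 FPKM at 5.6 M and 3.28, 0.960 and 3.12 FPKM at 6.6 M. ATF3 had 25 to 50 counts in the helium libraries and 5 to 46 in the nitrogen ones. Low counts scatter more, and depth went with the coolant, so the 2 cannot be told apart here. Helium values lay within the range of the fresh libraries in FPKM, and with TMM scaling helium 5.6 M library 3 lay just above it. ATF3 took 7.35% of its counts from helium 6.6 M library 2, which had the lowest ATF3 level of the 6 helium libraries.

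EGR1 encodes a zinc finger factor that MAP kinase signalling induces and that gonadotropins raise in granulosa cells (ENSBTAG00000010069, chromosome 7, 51438727 to 51442500). Fresh libraries had 0.810, 1.77 and 0.575 FPKM. Helium 5.6 M had 1.17, 0.694 and 0.869 FPKM, and helium 6.6 M had 0.557, 10.1 and 1.06 FPKM. The high value was library 2, with 216 of the 369 EGR1 counts of the study, or 58.5%. Libraries 1 and 3 of that group lay below and within the fresh range. Nitrogen 5.6 M had 0.556, 0.566 and 0.906 FPKM, and nitrogen 6.6 M had 1.14, 0.745 and 0.395 FPKM. Without helium 6.6 M library 2, the other 14 libraries had a mean of 0.845 ± 0.358 FPKM (SD, n = 14), and the highest of them was fresh library 2.

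MYC encodes a growth-promoting transcription factor and was the least abundant member (ENSBTAG00000008409, chromosome 14, 13769244 to 13774438). Helium 6.6 M libraries 1 to 3 had 2, 11 and 2 counts, the highest being 0.722 FPKM. Fresh library 3 and helium 5.6 M library 3 had 1 count each, and the other libraries had none. MYC had 0 counts in all 6 nitrogen libraries, where 3 counts, the upper limit that a count of 0 allows, correspond to between 0.406 and 1.68 CPM. The highest MYC level, in helium 6.6 M library 2, was 1.59 CPM. That is above the limit in 5 of the 6 nitrogen libraries. These limits cover counting error only.

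IER2 and IER3 encode short-lived immediate early response proteins, IER2 in the nucleus and IER3 linked to cell survival. IER2 (ENSBTAG00000016354, chromosome 7, 13543664 to 13545435) had 18 counts in helium 6.6 M library 2, or 1.47 FPKM. It had 3 counts in nitrogen 6.6 M library 3, 1 count in each of 4 libraries and 0 in the other 9. That 1 helium library held 72% of the IER2 counts.

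IER3 (ENSBTAG00000011358, chromosome 23, 28088456 to 28089722) followed another pattern. Fresh oocytes had 0, 3.65 and 1.82 FPKM, which spans the whole range of the study. Helium 5.6 M had 3.10, 1.37 and 0.675 FPKM, and helium 6.6 M had 1.23, 2.98 and 2.10 FPKM. At 5.6 M in nitrogen it had 2.20, 1.12 and 2.39 FPKM, and nitrogen 6.6 M had 0, 0.656 and 1.39 FPKM. The lowest group mean, 0.682 ± 0.696 FPKM (SD, n = 3) in nitrogen 6.6 M, differed from the fresh mean of 1.82 ± 1.82 (SD, n = 3) by less than the fresh SD.

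DUSP1 encodes the phosphatase that shuts off MAP kinases (ENSBTAG00000013863, chromosome 20, 4449109 to 4452189). Fresh oocytes had 1.24, 3.31 and 1.40 FPKM. Helium 6.6 M had 3.47, 5.95 and 3.44 FPKM, so its lowest library lay just above the highest fresh library. Such a gap was found for 8.27% of the 16294 genes with any count. Helium 5.6 M had 3.18, 2.85 and 1.48 FPKM. Levels in nitrogen 5.6 M were 2.76, 2.38 and 3.87 FPKM, and those in nitrogen 6.6 M were 3.48, 2.08 and 3.48 FPKM. These 3 groups overlapped the fresh ones, through fresh library 2. The mean over the 12 vitrified libraries was 3.20 ± 1.11 FPKM (SD, n = 12), against 1.98 ± 1.15 (SD, n = 3) in fresh oocytes. In FPKM every vitrified library lay above fresh libraries 1 and 3, but with TMM scaling helium 5.6 M library 5 lay below fresh library 3.

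The study's design asks what vitrification, the coolant and the concentration of agent changed. Counts were tested with edgeR's quasi-likelihood test, with p-values adjusted by Benjamini-Hochberg over all 8441 genes that passed a filter on low counts. The filter asked for 3.54 CPM in at least 3 libraries. JUN, JUNB, ATF3, EGR1 and DUSP1 passed it. FOS, FOSB, MYC, IER2 and IER3 did not, so these 5 have no test in that fit. EGR1 met the filter in exactly 3 libraries, 1 of them helium 6.6 M library 2. All comparisons with fresh oocytes share the same 3 fresh libraries.

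No member that passed the filter was called in any of the 8 comparisons, at an adjusted p under 0.05. For all vitrified against fresh oocytes, 0 of 5 members were called, where edgeR called 43 of all genes tested (0.509%), and 0 of the 5 members had an unadjusted p under 0.05. For helium 5.6 M against fresh it was 0 of 5, beside 0.474% of all genes, with 0 members at an unadjusted p under 0.05. For helium 6.6 M against fresh it was also 0 of 5, beside 0.628% of all genes (53 genes, and 3 with the replicate number as a block). There 2 members, EGR1 and DUSP1, had an unadjusted p under 0.05, as did 1304 of the 8441 genes tested. With the replicate block, and with only the groups compared in the fit, 1 member did (DUSP1), beside 1108 and 847 genes. With a term for depth 0 members did, beside 852 genes. In FPKM, every helium 6.6 M library lay above every fresh library for 2 of the 10 members, FOS and DUSP1, and for 8.27% of the 16294 genes with any count. Nothing particular to 2 members can be read from that. For nitrogen 5.6 M and nitrogen 6.6 M against fresh it was 0 of 5 each, beside 0.0118% and 0.0474% of all genes, with 0 members at an unadjusted p under 0.05. With shares this low, 0 of 5 is near the background. The shares themselves moved with single libraries, fresh library 2 above all. Without fresh library 2 edgeR called 243 genes for vitrified against fresh, 431 for helium 5.6 M and 598 for helium 6.6 M, and without fresh library 1 it called 5, 2 and 3. Members called were 0 in all of these fits.

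Between the coolants, helium against nitrogen, 0 of 5 members were called, beside 0.663% of all genes. An unadjusted p under 0.05 was found for 1 member, EGR1, and for 1350 of the 8441 genes tested. Between 6.6 M and 5.6 M, edgeR called 0% of all genes and 0 of 5 members, with 189 genes and 0 members at an unadjusted p under 0.05. The test of whether the effect of concentration differed between coolants also called 0% of all genes and 0 of 5 members, with 177 genes and 0 members at an unadjusted p under 0.05. DESeq2 called 0 members too wherever it gave them an adjusted p. It gave none for these 5 genes in the 4 comparisons of a vitrified group with fresh oocytes, and between coolants it gave 1 for JUN only.

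In all vitrified oocytes against fresh, DUSP1 was higher by 0.69 on the log2 scale (SE 0.352, 95% interval -0.043 to 1.43, edgeR adjusted p = 0.401). In helium 6.6 M it was higher than in fresh by 1.07 (SE 0.392, 95% interval 0.25 to 1.88, edgeR adjusted p = 0.195). Without helium 6.6 M library 2 this difference was 0.81. Without fresh library 2, DUSP1 was higher by 1.02 in all vitrified oocytes and by 1.38 in helium 6.6 M. Between helium and nitrogen, DUSP1 differed by 0.018 with a 95% interval reaching from -0.51 to 0.55, and this sign turned under several alternatives.

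JUN was the only tested member with a negative difference between all vitrified and fresh oocytes, -0.65 on the log2 scale (SE 0.398, 95% interval -1.48 to 0.18, edgeR adjusted p = 0.507). That difference was -0.028 without fresh library 2 and -1.08 without fresh library 3. ATF3 differed by 0.32 (95% interval -0.50 to 1.13), JUNB by 0.27 (95% interval -0.79 to 1.32) and EGR1 by 0.14 (95% interval -1.52 to 1.81). Their signs turned under some alternatives. The intervals leave room for more than a doubling of EGR1, JUNB, ATF3 and DUSP1, and for more than a halving of JUN and EGR1. Changes of that size are not excluded. In helium 6.6 M against fresh, JUN differed by -0.17, JUNB by 0.55 and ATF3 by 0.022 on the log2 scale, with edgeR adjusted p of 0.922, 0.713 and 0.993. The signs of JUN and ATF3 turned under some alternatives. Between helium and nitrogen, JUN differed by 0.28, JUNB by -0.0026 and ATF3 by -0.32, again within the spread of the libraries, and the sign of JUNB turned under some alternatives.

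EGR1 was higher in helium 6.6 M than in fresh oocytes by 1.83 on the log2 scale (SE 0.805, 95% interval 0.15 to 3.52, edgeR adjusted p = 0.275). It was higher in helium than in nitrogen by 1.38 (SE 0.608, 95% interval 0.11 to 2.66, edgeR adjusted p = 0.272). With no filter on low counts, 16294 genes were tested and all 10 members entered. Then 2 members, FOS and EGR1, were called in helium 6.6 M against fresh, beside 1.47% of all genes. The same 2 members were called in helium against nitrogen, beside 2.11% of all genes. Without the filter FOS was higher by 4.59 in helium 6.6 M than in fresh (edgeR adjusted p = 3.72e-09) and by 2.20 in helium than in nitrogen (edgeR adjusted p = 8e-05). EGR1 was higher by 1.89 (edgeR adjusted p = 0.00807) and by 1.42 (edgeR adjusted p = 0.00699). The fresh libraries held 3 FOS counts in all, so the size of its difference is poorly bounded. On the same counts, the SE of EGR1 in helium 6.6 M against fresh was 0.464 without the filter and 0.805 with it. The p-values without the filter therefore depend on how that fit set the spread between libraries, and are given as a description only.

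These calls rested on 1 library and on leaving out the filter. Another filter asked for at least 10 counts in every library of at least 1 group. With it 9282 genes and 7 members were tested, FOS among them, and helium 6.6 M library 2 was kept. It called 0 of the 7 members in either comparison, beside 51 genes for helium 6.6 M against fresh and 58 between coolants. When helium 6.6 M library 2 was left out of the fit without a filter, an alternative chosen after seeing the data, 0 of 10 members were called in either comparison, beside 0.506% and 1.57% of all genes. FOS was then higher by 2.58 in helium 6.6 M than in fresh (edgeR adjusted p = 0.248) and by 1.16 in helium than in nitrogen (edgeR adjusted p = 0.319), with unadjusted p of 0.00432 and 0.0269. EGR1 differed by -0.26 (edgeR adjusted p = 0.987) and by 0.33 (edgeR adjusted p = 0.870). Over all its alternatives the adjusted p of EGR1 ran from 0.00807 to 0.987 for helium 6.6 M against fresh and from 0.00699 to 0.870 for helium against nitrogen.

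**Figure D2:**
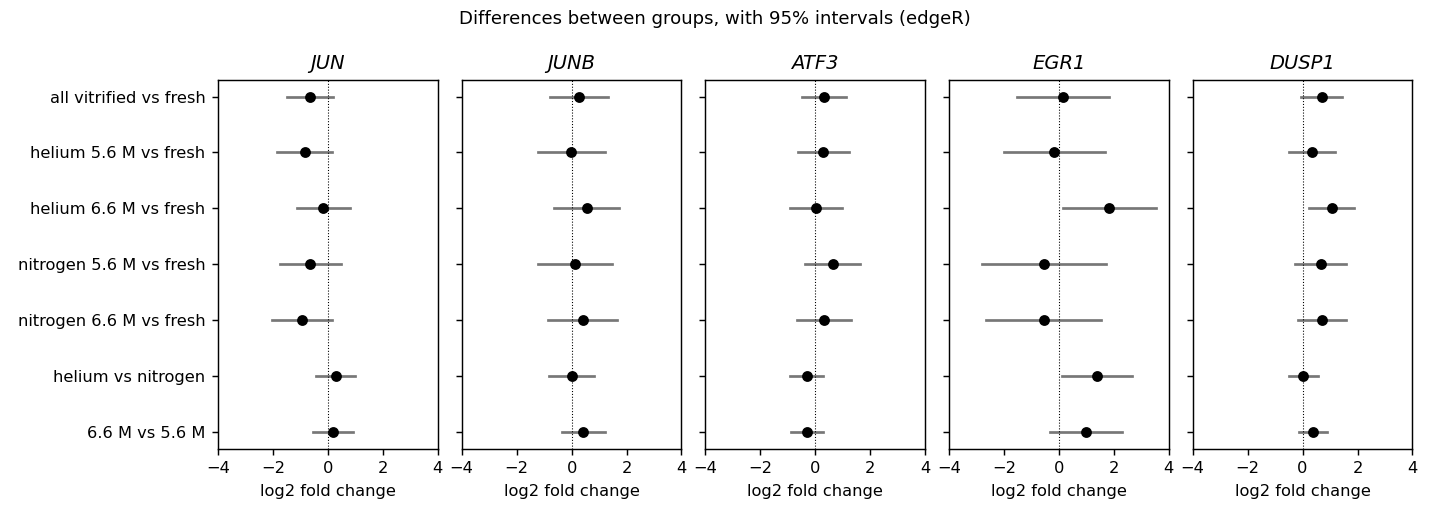
Points are log2 fold changes of the 5 members that passed the filter, with 95% intervals from edgeR, in 7 comparisons; the dotted line marks no difference, and the 5 comparisons with fresh share their controls. The intervals of EGR1 and DUSP1 in helium 6.6 M against fresh, and of EGR1 in helium against nitrogen, do not reach 0, but none of these passed the adjusted threshold.

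Helium 6.6 M library 2 had the highest level of 6 of the 10 members: FOS, FOSB, EGR1, MYC, IER2 and DUSP1. It was the highest library for 14.8% of the 8441 genes that passed the filter. FOS, FOSB, MYC and IER2 did not pass it, so that share is not a like background for them. The summed level of the 10 members was 115 CPM there and between 14.9 and 52.9 CPM in the other 14 libraries. Among the 6794 genes with at least 50 counts in this library, ranked by its CPM over the highest CPM elsewhere, FOS ranked 7, EGR1 ranked 12, FOSB ranked 41 and DUSP1 ranked 103. JUN ranked 4030, at 0.699 times its level in fresh library 2. Genes at the top of that ranking, named after their values were seen, included G0S2, an inhibitor of fat breakdown, RARRES2, which encodes chemerin, and TIMP1, a metalloprotease inhibitor that granulosa cells secrete.

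Fresh library 2 was the highest library for the other pair of members that did not peak in a vitrified library, JUN and IER3. It was also the highest library for 31.3% of all genes tested, more than any other, though IER3 was not among the genes tested. Its JUN level of 9.67 FPKM was 31 counts, and the next highest, 6.76 FPKM in helium 6.6 M library 2, was 91 counts. Nitrogen 5.6 M library 1 was the highest for ATF3 and nitrogen 6.6 M library 1 for JUNB.

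Several markers of cumulus and granulosa cells were also at their highest in helium 6.6 M library 2. Of 23 such markers, 21 were in the table. Of these, 3 were at 0 in every library (FSHR, FOXL2 and COL3A1), and 4 had at least 10 CPM in every library (STAR, HAS2, PTGS2 and VCAN). The number with their highest level in that library was 11 of 21. Over all 21 markers the summed level was 658 CPM in that library and 367 to 539 CPM in the other 14 libraries. None of the 4 markers found at 10 CPM or more everywhere had its highest level there. The summed level of the 17 markers left after the 4 was 271 CPM there, of which TIMP1 made 130 CPM. It was 17.0 to 35.3 CPM in fresh, 36.6 to 74.4 in helium 5.6 M, and 38.1 and 56.1 in the other 2 helium 6.6 M libraries. In nitrogen it was 31.9 to 33.0 CPM at 5.6 M and 26.8 to 38.4 CPM at 6.6 M.

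TIMP1 had 130 CPM in helium 6.6 M library 2 and at most 12.9 CPM elsewhere. TNFAIP6, a matrix protein of the expanding cumulus, had 30.8 CPM against at most 9.28, and VIM, an intermediate filament of somatic cells, had 16.8 CPM against at most 2.71. The steroid enzyme CYP11A1 had 6.37 CPM against at most 1.28, and the inhibin subunit INHA had 4.49 CPM against at most 0.624. Other markers of the list did not peak in that library. HAS2 had its lowest level of all libraries there, at 83.5 CPM, and GREM1 had 0.145 CPM against up to 1.71. INHBA, CYP19A1, STAR, PTGS2 and VCAN each had a higher level in another library. The defining receptor FSHR and the granulosa factor FOXL2 were at 0 in helium 6.6 M library 2. The 9 blood and immune markers in the table summed to between 0 and 8.11 CPM, with 4 of them at 0 in every library, and the highest sum was again in helium 6.6 M library 2. The part that other cells had in the FOS and EGR1 levels was not tested. In such libraries more cells of a type and more RNA per cell cannot be told apart.

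**Figure D3:**
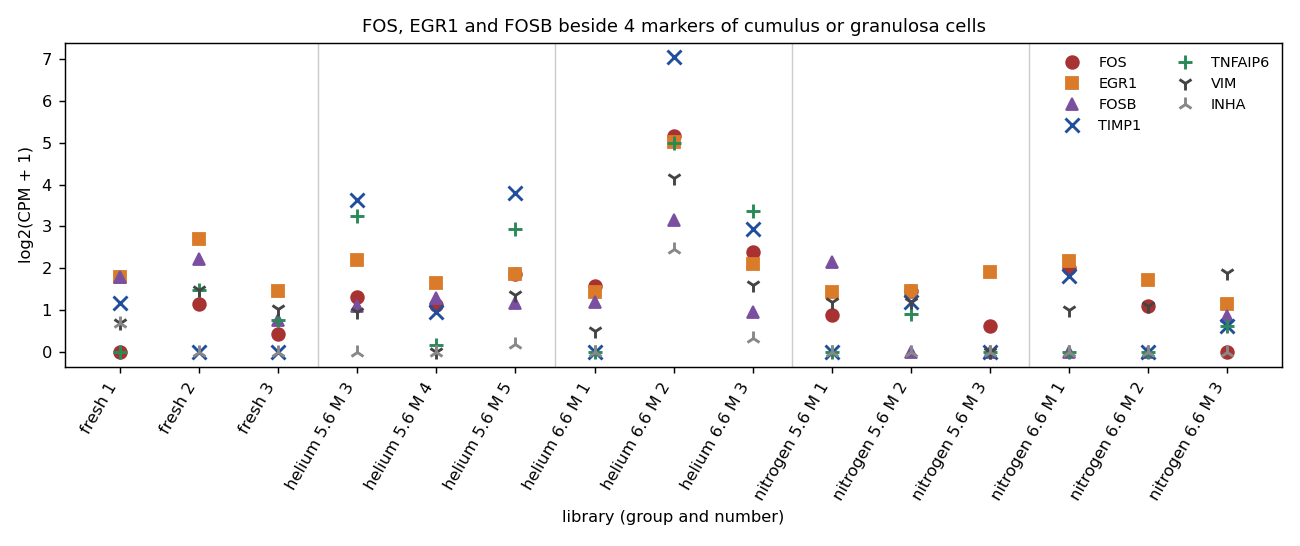
Levels of FOS, EGR1 and FOSB (filled symbols) and of 4 cumulus or granulosa markers (crosses), as log2(CPM + 1), in each of the 15 libraries. The 4 markers are among the 11 of 21 that peak in helium 6.6 M library 2. All 7 genes have their highest value in helium 6.6 M library 2, and TIMP1 and TNFAIP6 also lie above the fresh libraries in helium 5.6 M libraries 3 and 5 and helium 6.6 M library 3.

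The number of members with at least 1 count also differed between groups. It was 6, 8 and 10 of 10 in fresh libraries 1 to 3, and 10, 8 and 8 in helium 5.6 M. All 10 were seen in each helium 6.6 M library. Nitrogen 5.6 M had 8, 7 and 7 members, and nitrogen 6.6 M had 6, 7 and 8. Deeper libraries detect more rare genes, so the number expected had each library been thinned to the smallest total was computed. It was 7.47 ± 1.29 in fresh oocytes, 7.85 ± 0.285 in helium 5.6 M, 8.91 ± 0.885 in helium 6.6 M, 7.25 ± 0.557 in nitrogen 5.6 M and 6.63 ± 0.572 in nitrogen 6.6 M (SD, n = 3 each). At that depth helium 6.6 M libraries 1 and 3, at 8.39 and 8.41 members, were level with fresh library 3, at 8.41.

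**Figure D4:**
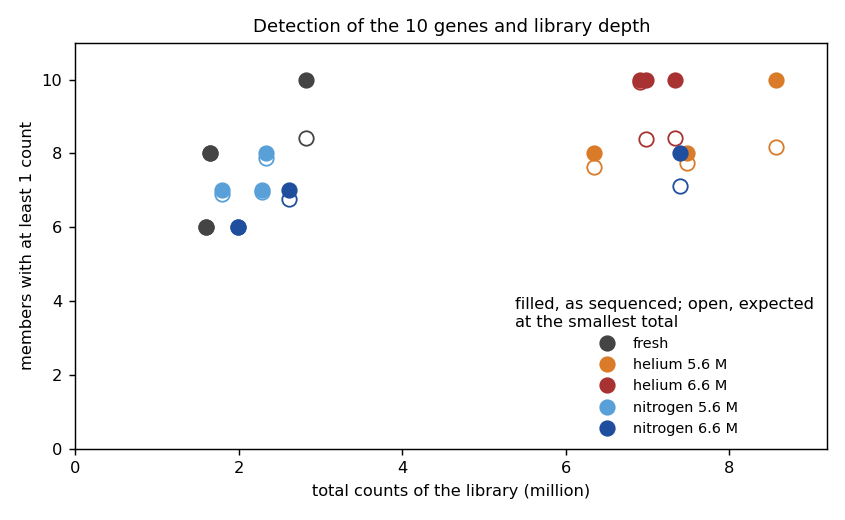
The number of members with at least 1 count is plotted against the total counts of the library; filled points are the libraries as sequenced, and open points are the numbers expected at the smallest total. The 6 helium libraries and nitrogen 6.6 M library 3 lie to the right, and thinning lowers helium 6.6 M libraries 1 and 3 to 8.39 and 8.41 members.

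The genes that surround these members in their pathways were examined as 6 lists, and edgeR called none of their tested genes in any of the 8 comparisons. Of 45 other immediate early genes, 40 were in the table and 21 were tested. For vitrified against fresh oocytes 0 of these passed in either direction, and their median difference was -0.0012 on the log2 scale, beside -0.030 over all genes tested. Several were far more abundant than the members. ID3, an inhibitor of differentiation factors, had a mean of 2851 ± 1172 FPKM (SD, n = 15 for the means of this and the next paragraphs). NFKBIA, the inhibitor of NF-kappaB, had 364 ± 72.7 FPKM, and HBEGF, an EGF receptor ligand, had 187 ± 53.5 FPKM. Of the 38 genes of this list with any count, 7 had their highest level in helium 6.6 M library 2. Of all genes tested 14.8% did, but not all 38 were tested, so the sets are unlike. In the other lists, in the order in which they follow, it was 2 of 29, 2 of 11, 2 of 20, 1 of 22 and 2 of 23.

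MAP kinases and the activators that switch immediate early genes on were a list of 36, with 31 in the table and 19 tested, of which 0 passed in either direction. Their median was -0.16 for vitrified against fresh oocytes. MOS, the oocyte kinase that drives the MAP kinase cascade in meiosis, was the most abundant at 501 ± 223 FPKM. MAP2K1, the kinase below it, had 135 ± 25.9 FPKM, and ATF1, a CREB-like activator, had 60.5 ± 12.2 FPKM. Each was more abundant than any of the 10 members. Among 14 dual specificity phosphatases, the family of DUSP1, all were in the table and 7 were tested, with 0 passing and a median of -0.14. DUSP19 had 39.6 ± 10.5 FPKM, DUSP10 had 30.8 ± 5.12 and DUSP6 had 6.89 ± 3.73, so each was more abundant than DUSP1.

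Of 23 partners and repressors of AP-1 and MYC, 20 were in the table and 13 were tested. None passed, and their median was 0.015. DDIT3, a stress-induced partner that blocks C/EBP factors, had 695 ± 103 FPKM, ATF2 had 115 ± 24.1 FPKM, and FBXW7, which marks JUN and MYC proteins for degradation, had 60.7 ± 13.9 FPKM. The list of 22 factors that degrade AU-rich and other mRNAs was all in the table, with 19 tested, 0 passing and a median of -0.12. BTG4, the adaptor that brings deadenylase to maternal mRNA, had 30867 ± 5999 FPKM, CNOT7, a deadenylase, had 354 ± 60.9 FPKM, and HNRNPD, which binds AU-rich elements, had 208 ± 58.5 FPKM. Of 26 genes of the integrated stress and heat shock responses, 24 were in the table and 17 were tested, with 0 passing and a median of -0.091. DNAJA1 and HSPA8, chaperones present without stress, had 199.6 ± 21.3 and 151 ± 28.9 FPKM, and HSPH1 had 42.6 ± 4.52 FPKM.

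For the 3 members with the highest mean level, the genes whose levels ran most nearly in parallel over the 15 libraries were found by Pearson's r of log2 scaled CPM, among 9073 genes with a mean of at least 1 FPKM. For JUN these were MLF2, XBP1 and SSBP3, each with r = 0.90. For DUSP1 they were PRADC1 (r = 0.89), METTL22 (r = 0.88) and NR0B1 (r = 0.87). For ATF3 they were HOXB7 (r = 0.75), RCN1 (r = 0.74) and XPO5 (r = 0.74). These values are descriptions over libraries that also differ in depth, and the highest of so many correlations are high by selection. With the other members, r of JUN ran from 0.065 (IER3) to 0.60 (FOSB), and r of DUSP1 from 0.081 (FOSB) to 0.54 (FOS).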

How the data were processed

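RNA of single cells was amplified to cDNA with a SMARTer kit and made into libraries with SMART-Seq and Ovation kits, per the labels' protocols. Whether a library held 1 oocyte is not stated. The authors deposited a table of read counts and FPKM per gene for the 15 libraries. The submitters' processing notes name HISAT2 2.0.4, StringTie 1.3.0 and the UMD3.1 genome, with no role. For read filters, strand and multi-mapping nothing is given in the sources used here. The deposited FPKM equalled count over gene length and library total, within 0.1%, for 100% of the 180473 values above 0. No member overlaps another gene of the table. The lowest total of 1601519 counts makes 3 counts equal 1.87 CPM.

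Groups came from the labels. One fit over the 5 groups used edgeR 4.0.16 in R 4.3.3 (TMM scaling, filterByExpr, robust quasi-likelihood test, no replicate block), tested on simulated data. DESeq2 1.42.0, other filters, size factors, a depth term and left-out libraries were alternatives. The members and lists were chosen with earlier results of these data known. Named were all 10 members, any listed gene that passed the threshold and otherwise the 3 most abundant of each list, and the 3 genes most like each of the 3 most abundant members.

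Deviations of same-numbered libraries from their group means correlated above 0.1 in all 3 pairs only between helium 6.6 M and fresh (r = 0.15, 0.31 and 0.23). The labels tie the numbers to no animal or day. No 2 libraries of a group agreed within sampling noise.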

Additional observations from a re-analysis of the deposited data

Results flagged for a closer look

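Among the 6 helium libraries, helium 6.6 M library 2 lay far from the others for 5 members. Its levels were 16.4 FPKM for FOS (next highest 2.02), 10.1 for EGR1 (1.17), 2.47 for FOSB (0.457), 1.47 for IER2 (0.0807) and 0.722 for MYC (0.130). Among the 6 nitrogen libraries, FOSB stood apart in nitrogen 5.6 M library 1 at 1.07 FPKM (next highest 0.252), and IER2 in nitrogen 6.6 M library 3 at 0.229 FPKM, where the other 5 libraries had 0. The last is 3 counts in the deepest nitrogen library. In all, 19 sets of 6 libraries were examined and 7 stood out. The nominal rate of about 1 in 20 holds for normally distributed values and not for low counts with many zeros. It is therefore no measure of how many flags to expect here. Sets that share a library are also not independent.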

How the results depend on the processing

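Of 181 alternative counts of called members, 179 were 0. The other 2 came from fitting without a filter on low counts, which called 2 members in helium 6.6 M against fresh and 2 in helium against nitrogen. Leaving out each library in turn gave 0 to 0 called members in all 8 comparisons. EGR1 fell under the filter without helium 6.6 M library 2. Of 341 alternative log2 differences, 305 kept their direction and side of the threshold and 34 changed sign. None of the 34 passed the threshold, and the cause was not tested.

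With each library left out in turn, JUNB ran from -0.17 to 0.88 and EGR1 from -0.10 to 0.52 for vitrified against fresh, JUN from -0.60 to 0.45 and ATF3 from -0.20 to 0.18 for helium 6.6 M against fresh, and JUNB from -0.23 to 0.29 and DUSP1 from -0.11 to 0.13 for helium against nitrogen. When the deeper and shallower libraries had a term of their own, which only nitrogen 6.6 M library 3 informs, ATF3 was -0.069 for vitrified against fresh, JUN was 0.68 and ATF3 -0.60 for helium 6.6 M against fresh, and JUNB was 0.44 and DUSP1 -0.24 for helium against nitrogen. Without a filter JUNB was 0.029 between coolants. Leaving out helium 6.6 M library 2 as well, EGR1 was -0.35 for vitrified and -0.26 for helium 6.6 M against fresh, and JUNB was 0.057 and DUSP1 -0.084 between coolants. With only the compared groups in the fit, DUSP1 was -0.0065 between coolants.

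With the replicate block 0 members were called in each comparison fitted. ATF3 was -0.013 for helium 6.6 M against fresh and JUNB 0.28 between coolants. The numbers pair the libraries of helium 6.6 M and fresh by correlation only. No blocked fit was made for helium 5.6 M against fresh, which share 1 number. The block lowered the genes called from 43 to 1 for vitrified against fresh, from 53 to 3 for helium 6.6 M against fresh and from 56 to 0 between coolants, and DESeq2 raised them to 191, 279 and 269.

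Rarity limits all of this. The members had 17 to 443 counts over the study, depth went with coolant, and 5 of the 10 reached the filter's level in too few libraries to be tested with it.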
